A study of Saccharomyces cerevisiae W303 with 4 samples.

Results

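The genes described here are the 56 nuclear genes of Saccharomyces cerevisiae that encode proteins of the small (40S) subunit of the cytosolic ribosome. They were chosen by name, as every gene of the RefSeq R64 annotation whose symbol is RPS followed by a number, and they make up 56 of 6002 nuclear protein-coding genes. Of these, 48 form 24 pairs of duplicated genes, called the A and B copies, and 8 are single genes, such as RPS2, RPS3 and RPS20. An intron interrupts 36 of the 56. The start-to-stop span, called the gene body here, ran from 171 to 1214 bp with a median of 766.5 bp.

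The study mapped by ChIP-seq where Zuo1 is found on the yeast genome. Cells of a W303 strain that carried Myc-tagged Zuo1 were grown, crosslinked with formaldehyde and lysed, and chromatin was immunoprecipitated with an antibody against the Myc tag. There were 2 immunoprecipitated (IP) libraries and 2 input libraries from the same tagged strain. The libraries were pooled for peak calling, so that 1 peak list was available, and no spread between replicates and no test between groups could be had from it. A strain without the tag was not analysed here.

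Zuo1 is a J-domain protein that pairs with the atypical Hsp70 Ssz1 to form the ribosome-associated complex, which sits near the exit of the ribosomal tunnel and stimulates the Hsp70 Ssb on nascent chains. It also has known roles away from the ribosome, in the nucleus. Ribosomal protein genes are among the most strongly transcribed genes of growing yeast. Their promoters are typically bound by Rap1 together with Fhl1 and Ifh1, and in yeast they hold a large part of all introns although most other genes have none. The duplicated copies descend from an ancient genome duplication and encode nearly the same protein.

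A Zuo1 peak overlapped the gene body of 49 of the 56 RPS genes (87.5%), where 17.9% of all 6002 nuclear protein-coding genes had one. Genes outside the RPS set with the same range of lengths had a body peak in 15.9% of 2881 cases. On average 64.5% of an RPS gene body lay under a peak, against 8.74% over all genes and 9.36% over those with the same range of lengths. Of the 56, 40 had at least 50% of the body covered, a count for which no share over all genes is given here. The RPS genes were thus covered along most of their length rather than touched at an edge.

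The 500 bp upstream of the start codon were overlapped in 25 RPS genes (44.6%), with 13.3% over all genes. Body or upstream region was overlapped in 50 genes (89.3%, against 24.4%). The summit, the single base where the IP signal of a peak is highest, fell inside the gene body for 41 genes (73.2%, against 13.8%) and inside the upstream region for 11 (19.6%, against 5.98%). Both regions had more peaks than the background, and the body stood further above it.

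The genes of the large subunit and its stalk (RPL and RPP) gave close values, with a body peak in 76 of 82 (92.7%) and an upstream peak in 29 (35.4%). The mitochondrial small-subunit genes (MRPS and RSM), whose products belong to a separate ribosome, had a body peak in 2 of 20 (10%). Among 182 genes with an intron outside the cytosolic ribosome, 35 had one (19.2%). High coverage was therefore shared with the large-subunit genes, while the mitochondrial and the other intron-containing genes had shares near that of all genes.

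**Figure D1:**
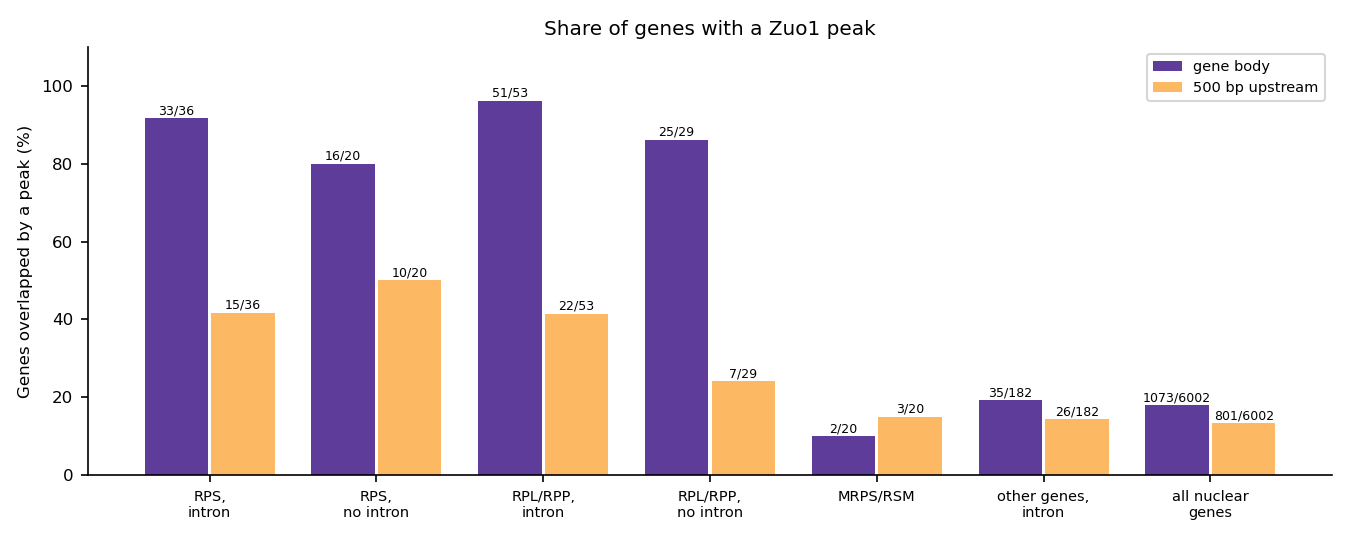
Share of genes (%) overlapped by at least 1 bp of a peak in the gene body (purple) and in the 500 bp upstream of the start codon (orange), with counts above the bars. The body bars of the RPS and of the RPL and RPP genes stand between 80.0% and 96.2%, those of the other gene sets between 10% and 19.2%.

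The enrichment over these genes was frequent, with a median near that of all nuclear peaks and a smaller share of high values. The peak list gives a fold enrichment of the pooled IP over the local background at the summit, and the numbers of IP fragments and of background fragments behind it could be worked out from the deposited values. The 53 distinct peaks over RPS bodies had a median of 93 IP fragments (range 70 to 323) over a background of 34.4 to 43.4, and a median fold enrichment of 2.39. All 1543 nuclear peaks had medians of 92 fragments and 2.44-fold. Only 7 of the 53 peaks reached 3-fold (13.2%), whereas 463 of the nuclear peaks did (30.0%). The RPS body peaks had a median length of 714 bp, against 426 bp for all nuclear peaks. A long peak meets a gene body more readily than a short one, so these sets are not alike. Lengths of peaks over other gene bodies are not given here.

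Taking the strongest body peak of each gene, the median over the 49 genes was 2.46-fold (quartiles 2.17 and 2.90, range 1.83 to 8.94). The strongest body peaks of the RPL and RPP genes had a median of 2.45-fold, and those of genes outside the RPS set 2.71-fold. A body peak of 3-fold or more was seen in 8 RPS genes (14.3%), with 7.31% over all genes and 20 of 82 RPL and RPP genes (24.4%). The intervals given below are exact 95% Poisson intervals on the IP fragments and cover counting error only.

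The highest value, 8.94-fold (8.0 to 9.97, 323 IP fragments), belonged to a peak of 2100 bp over all of RPS30B, whose product eS30 is made as a fusion with a ubiquitin-like domain in mammals but without it in yeast. Its summit lay 709 bp past the stop codon, inside the neighbouring gene LAS17, which encodes an activator of actin nucleation. The value is therefore that of a summit in LAS17 and not of a summit in RPS30B.

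RPS14B, which encodes uS11 of the platform of the subunit, had the strongest summit inside an RPS gene. The summit lay in its second exon, at 5.50-fold (4.81 to 6.26, 229 IP fragments). The same peak ran 11 bp into the end of RPS22A, which gave that gene the same value although the summit was 428 bp past its stop codon. RPS14A had its summit in the second exon too, at 3.22-fold (2.68 to 3.84, 122 IP fragments). The intervals of the 2 copies did not overlap. Both summits lay in the last part of the coding sequence, at 129 bp before the last base of the stop codon in RPS14B and 181 bp in RPS14A, so that the 100-base windows around them share a stretch of the gene. Windows are shown 5′ to 3′ on the coding strand from RefSeq R64 (RPS14B at chrX:74432-74531, plus strand, and RPS14A at chrIII:177631-177730, minus strand), with runs of 3 or more G or of 3 or more C in capitals.
RPS14B: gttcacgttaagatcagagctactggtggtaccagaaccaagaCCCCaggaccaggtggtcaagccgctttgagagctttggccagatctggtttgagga
RPS14A: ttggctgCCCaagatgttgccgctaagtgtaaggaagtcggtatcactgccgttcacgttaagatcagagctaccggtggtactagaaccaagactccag

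RPS9A, whose product uS4 lies at the mRNA entry of the subunit, followed with 3.39-fold (2.86 to 4.01), and its summit lay in the intron. RPS1B (eS1) had 3.06-fold (2.54 to 3.65) with a summit in the coding sequence. RPS18B (3.02-fold) and RPS7B (3.0-fold) had their strongest summits past the stop codon, by 181 and 398 bp. The RPS7B peak overlapped only 27 bp of the gene body and also overlapped the tRNA gene YNCN0007W. The summit inside RPS7B had 2.07-fold. Of the 10 genes with the highest body values, 5 owed them to a summit outside their own body, RPS30B, RPS22A, RPS18B and RPS7B among them. RPS0B and RPS9B came next, each at 2.99-fold with a summit in the second exon.

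All 8 single genes had a body peak, from 1.99-fold to 2.96-fold with a median of 2.64. RPS12 (eS12) had 2.75-fold (2.27 to 3.31), RPS13 (uS15) 2.72-fold and RPS20 (uS10) 2.65-fold. RPS2 (uS5) and RPS31, which encodes a fusion of ubiquitin with eS31, both had 2.63-fold. RPS3 (uS3, at the mRNA entry channel) had 2.19-fold and RPS15 (uS19) 1.99-fold, the latter with a summit 333 bp past the stop codon. Neighbours in this order had overlapping counting intervals, and so did RPS12 and RPS15.

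**Figure D2:**
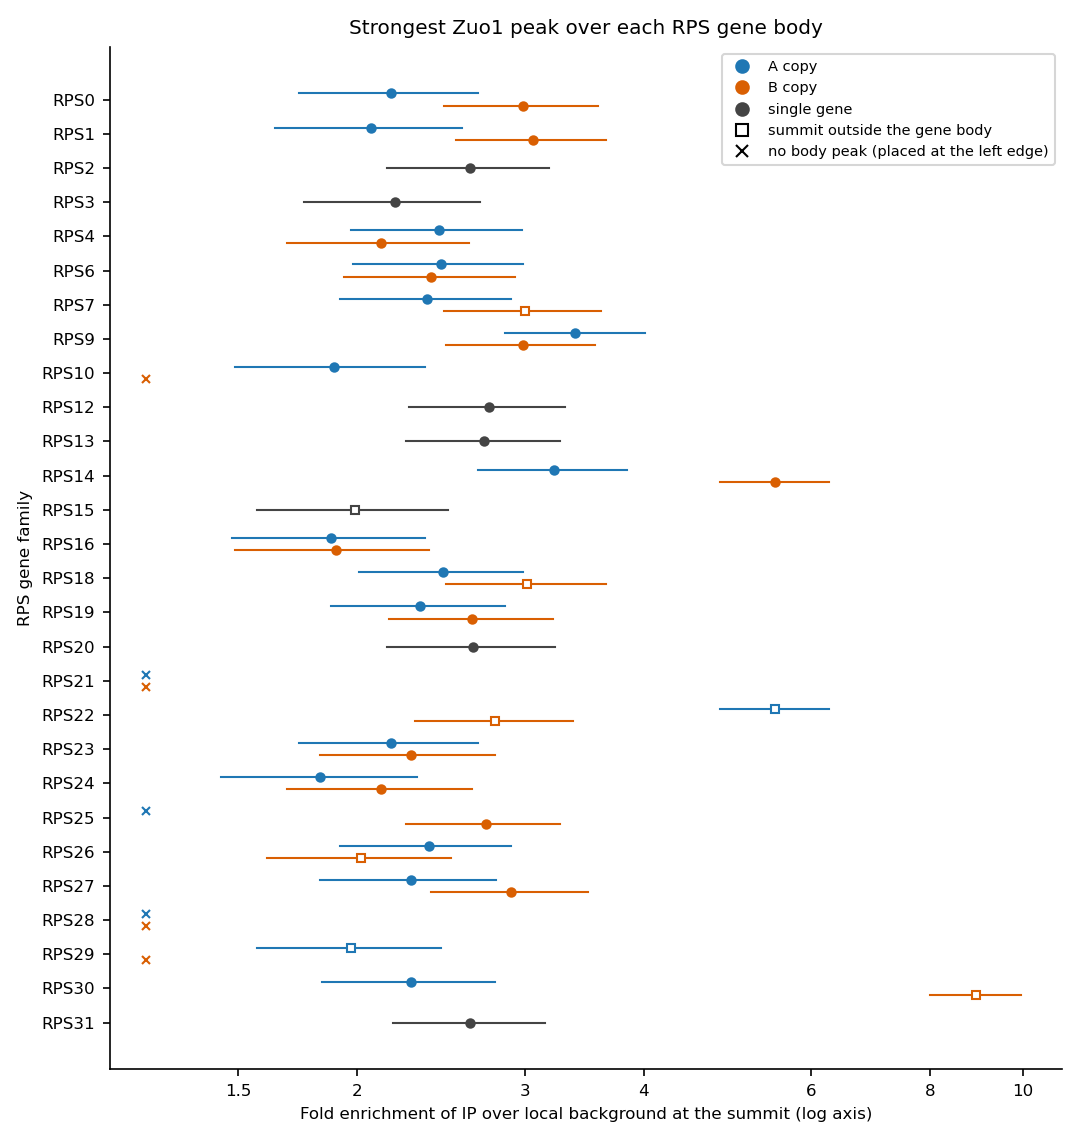
Fold enrichment of the pooled IP over the local background (log axis) at the strongest peak over each RPS gene body, with exact 95% Poisson intervals as lines, for A copies (blue), B copies (orange) and single genes (grey). Squares mark summits outside the gene body and crosses, placed at the left edge, the 7 genes with no body peak; 49 of the 56 genes are drawn, and apart from RPS30B at 8.94-fold and the shared peak of RPS14B and RPS22A at 5.50-fold, they lie between 1.83-fold and 3.39-fold.

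Peak coverage changed sharply along the RPS genes. A peak covered the position 400 bp upstream of the start codon in 5 of 56 genes (8.93%), that 200 bp upstream in 16 (28.6%) and the start codon itself in 14 (25%). At 200 bp past the start codon 35 genes were covered (62.5%), and at 400 bp past it 42 (75%), a position that lies beyond the stop codon in the shortest genes. Coverage was still 67.9% at the stop codon and 51.8% at 200 bp past it, and fell to 26.8% at 400 bp past it. All nuclear genes outside the cytosolic ribosome had a coverage between 4.13% and 10.2% at each position within 1000 bp of the start codon, lowest 60 bp before it. The RPL and RPP genes had a like profile, with 23.2% at the start codon and 76.8% at 400 bp past it. Among the RPS genes the start codon was covered in 6 of 36 with an intron (16.7%) and in 8 of 20 without (40%), and the position 200 bp upstream in 8 of 36 (22.2%) and 8 of 20 (40%). At 400 bp past the start codon both stood at 75%. That position lies past the stop codon in the 10 of the 20 genes without an intron that are at most 400 bp long. It lies inside the body of every gene with an intron, the shortest of which has 586 bp.

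**Figure D3:**
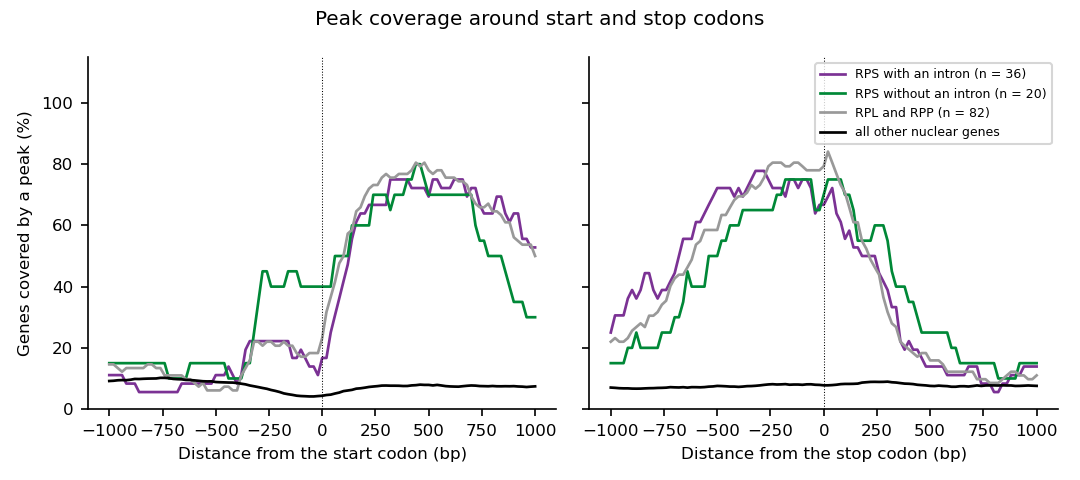
Share of genes (%) covered by a peak at each distance (bp) from the start codon (left) and from the stop codon (right), in steps of 20 bp, for RPS genes with (purple) and without (green) an intron, RPL and RPP genes (grey) and all other nuclear genes (black). Over the RPS genes together, coverage is 25% at the start codon and 75% at 400 bp past it.

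The summits leaned towards the end of the gene. RPS bodies held 42 summits, of which 7 lay in the first of 3 equal parts of the body, 14 in the middle part and 21 in the last (50%). In genes outside the RPS set 36.6% of 990 summits lay in the last part and 29.9% in the first, and in RPL and RPP genes 45.2% of 62 lay in the last. The median RPS summit lay at 66.6% of the way along the body, against 60.1% in RPL and RPP genes and 53.1% in all genes outside the RPS set. In RPS genes without an intron none of the 11 summits lay in the first part, and that of RPS26A lay on its boundary and was counted in the middle part. These shares describe 1 peak list and were not tested.

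In the 36 genes with an intron the body held 31 summits. Of these, 13 lay in the intron, 18 in the second exon and none in the first exon, which is short in these genes. The intron summits included those of RPS0A, RPS7A, RPS7B, RPS9A, RPS10A, RPS19A, RPS23A, RPS23B, RPS27A, RPS27B and RPS30A. The intron made up a median of 49.3% of the body. The 13 intron summits had a median of 2.28-fold (range 1.88 to 3.39) and the 29 summits in coding sequence, genes without an intron included, 2.47-fold (range 1.83 to 5.50). Peaks covered a median of 79.8% of the introns and 89.0% of the second exons, with the second exon covered more in 20 genes, the intron more in 9 and both equally in 4, while 3 had no peak over either. Peaks were thus seen over introns as well as over second exons. RPS4A and RPS4B (eS4), RPS14A, RPS16A and RPS16B (uS9) and RPS24A (eS24) had peaks over the second exon with the intron at 0% covered, while RPS0A (uS2) and RPS23A (uS12, of the decoding centre) had the reverse.

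RPS introns had a median length of 408.5 bp (256 to 551), and their GC content had a median of 33.7% against 42.9% in the coding sequence of the same genes. The donor hexamer GTATGT was found in 24 of 36 and the branch-point motif TACTAAC in 33. The intron summits came with lower GC content in the 100 bases around them, with a median of 35% (25% to 44%) against 43% (35% to 53%) around summits in coding sequence. The summit of RPS30A, which encodes eS30, lay on the last base of its intron. Its window is shown with the branch-point motif and the last 3 intron bases in capitals (RefSeq R64, chrXII:712676-712775, minus strand). The window of RPS9A follows as the strongest intron summit (chrXVI:405256-405355, plus strand), and it holds no run of 3 G or 3 C.
RPS30A: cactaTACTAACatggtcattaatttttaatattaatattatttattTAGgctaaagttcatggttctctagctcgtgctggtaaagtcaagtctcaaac
RPS9A: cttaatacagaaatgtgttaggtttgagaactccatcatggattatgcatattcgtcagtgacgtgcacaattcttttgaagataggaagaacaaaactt

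A body peak was found in 33 of 36 genes with an intron (91.7%) and in 16 of 20 without one (80.0%). The strongest body peaks had medians of 2.44-fold and 2.63-fold, and the mean covered share of the body was 64.8% and 64%. Length moved with the difference in frequency: all 4 intronless genes that lacked a body peak were among the 10 of at most 400 bp, of which 6 had one, whereas all 10 longer intronless genes had one. Outside the RPS set 15.1% of 523 genes of at most 400 bp and 16.1% of 2358 longer genes, up to 1214 bp, had a body peak. No RPS gene with an intron was as short as 400 bp, so intron and length cannot be told apart at that end. The upstream region was overlapped in 15 genes with an intron (41.7%) and 10 without (50%).

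**Figure D4:**
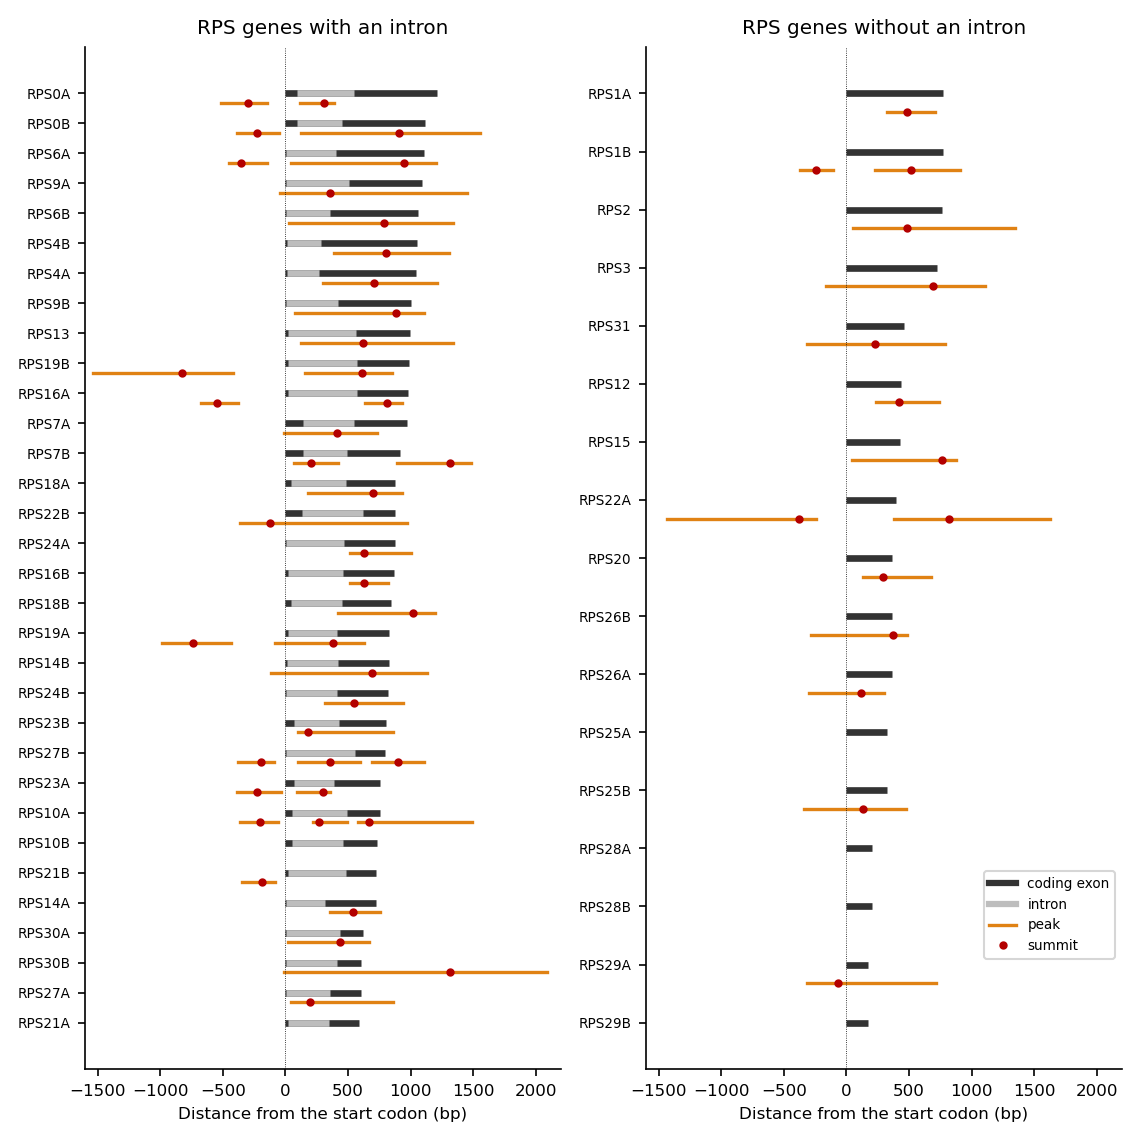
Maps of 32 RPS genes with an intron (left) and 17 without (right), ordered by length, drawn to scale from the start codon (bp), with coding exons in black, introns in grey, peaks over the body or the 500 bp upstream in orange and summits as red points. Most peaks begin past the start codon and many run past the stop codon, and 6 genes have no peak.

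The duplicated genes allow a comparison of copies that encode nearly the same protein. Their coding sequences were 84.3% to 99.2% identical, with a median of 92.8%. Both copies had a body peak in 19 of 24 pairs, the A copy alone in RPS10 and RPS29, the B copy alone in RPS25, and neither in RPS21 and RPS28. In total 21 A copies and 20 B copies had a body peak.

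In the 19 pairs with both copies covered, the B copy was higher in 13 and the A copy in 6, with medians of 2.33-fold for A and 2.64-fold for B. The larger value was a median of 1.18 times the smaller one (1.01 to 3.93). The counting intervals overlapped in 16 pairs and did not in RPS14, RPS22 and RPS30, and in the last 2 of these the higher value came from a summit outside the gene. Where each copy had a summit of its own, a selection made after the values were seen, 14 pairs remained. The B copy was then higher in 10 and the A copy in 4, with medians of 2.30-fold for A and 2.48-fold for B. In RPS7 the order turned, with 2.37-fold for A and 2.07-fold for B, because the stronger peak of RPS7B had its summit outside the gene. The largest ratio was 1.71, and RPS14 was the 1 pair whose intervals did not overlap. The ratio of the B copy to the A copy, with an exact 95% interval on the IP fragments that takes the background as known, was 1.71 (1.37 to 2.15) in RPS14, 1.48 (1.1 to 2.0) in RPS1 and 1.38 (1.04 to 1.85) in RPS0. The intervals of the other 11 pairs included 1, and none of the 14 was adjusted for the number of pairs.

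Of the 14 pairs, 7 had both in coding sequence (RPS1, RPS4, RPS6, RPS14, RPS16 and RPS24 among them), 4 had both in the intron (RPS7, RPS23 and RPS27 among them) and 3 had an intron summit in 1 copy (RPS0, RPS9 and RPS19). Counted back from the stop codon, the 7 coding pairs had summits 29 to 117 bp apart, with a median of 52 bp. RPS1 has no intron, so its summits could lie in coding sequence only. The closest were RPS24A and RPS24B, whose summits lay 243 and 272 bp before the last base of the stop codon. In the copies of RPS4, RPS6 and RPS24, 13.4% to 43.5% of the 64-base words of the body occurred elsewhere in the genome. Reads may be shared between such copies, so how near their summits lie is uncertain, and this was not tested. RPS0A and RPS0B were 695 bp apart, with 2.17-fold in the intron of the A copy and 2.99-fold in the second exon of the B copy.

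Near-identical copies share sequence to which reads of 64 bases cannot be assigned uniquely. Over 10% of the 64-base words of the body occurred elsewhere in the genome for 8 members, among them the copies of RPS4, RPS6 (eS6) and RPS24, and the share ran from 13.4% to 74.4% over the 8. All 8 had a body peak, with a median of 2.42-fold (1.83 to 3.0), and their values and summit positions are uncertain between copies. Of the other 48 members 41 had one (85.4%), with a median of 2.49-fold.

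The 7 genes without a body peak were RPS10B (eS10), RPS21A and RPS21B (eS21), RPS25A (eS25), RPS28A and RPS28B (eS28) and RPS29B (uS14). RPS21B had an upstream peak of 2.43-fold with its summit 190 bp before the start codon, and the other 6 had no peak in either region. RPS28B and RPS25A had a peak 229 and 738 bp away, while the nearest was between 2763 and 9600 bp away for RPS10B, RPS21A, RPS28A and RPS29B. Several of these genes are very short, at 204 bp for the RPS28 copies and 171 bp for RPS29B. RPS29A, of the same length, was covered whole by a peak of 1031 bp that also overlapped the snoRNA gene SNR34, with a summit 71 bp before its start codon at 1.97-fold. The files list called peaks only, so a weaker enrichment over the 7 genes cannot be seen.

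Upstream of the genes, 14 members had a peak that also covered part of the body and 13 had a separate peak. The separate peaks were short, with a median of 304 bp, and had a median of 2.73-fold (2.37 to 4.43). In 9 of the 13 the summit lay within the upstream region, between 190 and 376 bp before the start codon. Of the 12 members with both a separate upstream peak and a body peak, 8 had the higher value upstream. Of the 13, 10 peaks overlapped no gene, and 3 lay over neighbouring large-subunit genes. The next gene upstream was divergent, transcribed away from the RPS gene, in 10 of the 13 members and tandem in 3. Among the members without a separate upstream peak it was divergent in 24 and tandem in 19. A peak between divergent genes cannot be assigned to either gene alone.

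RPS23A had the strongest of the separate upstream peaks, at 4.43-fold (3.80 to 5.14, 174 IP fragments), while its intron peak had 2.17-fold (1.74 to 2.68). That upstream peak lay in the gap of 494 bp between RPS23A and the divergent gene YGR117C, and may belong to either. RPS0B had 3.41-fold upstream and 2.99-fold in the body, with overlapping intervals. RPS22A had 3.43-fold upstream with a summit 376 bp before its start codon, in a peak that also overlapped the divergent gene RPL39. The upstream peak of RPS23A also held a motif of 4 G tracts, each of at least 3 G, with loops of 1 to 25 bases, the pattern of a potential G-quadruplex, searched on both strands. The motif lay on the minus strand (chrVII:726590-726615, RefSeq R64), 131 bp from the summit. It is shown 5′ to 3′ on the G-rich strand with the G tracts in capitals.
RPS23A: GGGtatGGGtgtatataGGGtatGGG

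The motif was found in 2 of the 13 separate upstream peaks (15.4%) and in 1 of the 53 body peaks (1.89%), against 137 of the 1543 nuclear peaks (8.88%). In 1 of the 2 upstream peaks the motif itself lay more than 500 bp before the start codon, outside the upstream region. The 1 body peak was that of RPS30B, and the motif lay in LAS17. A looser motif with tracts of 2 G and loops of up to 7 bases was found in 26 (49.1%), against 54.4% of nuclear peaks. Of the 42 windows of 100 bases around summits in RPS bodies, 25 held a run of 3 or more G or C (59.5%), against 68.6% of the windows around all 1543 nuclear summits. Peaks differ in length between these sets, and a match is a description of the letters only.

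The promoters were searched on both strands for ACCCNNACA, a core of the sequence that Rap1 binds. It was present in the 500 bp upstream of 18 of 56 RPS genes (32.1%), of 43.9% of RPL and RPP genes and of 5.48% of all genes. The 22 matches lay a median of 341 bp before the start codon, and 5 of them lay under a peak, in RPS0A, RPS6A, RPS10A, RPS16A and RPS21B. The short hexamer GACGCA, part of the Fhl1 motif, was in 6 RPS promoters (10.7%), near its share of 10.9% over all genes. Peaks covered on average 22.2% of the RPS upstream regions, so 5 of 22 matches is near the share of that sequence under a peak. For 2 genes with a match under an upstream peak and 2 with a body peak but none over the match, 30 bases around it are shown on the coding strand with the match in capitals (RefSeq R64: RPS6A at chrXVI:378806-378835, minus; RPS21B at chrX:157596-157625, minus; RPS13 at chrIV:579217-579246, plus; RPS2 at chrVII:277218-277247, plus).
RPS6A: ttctcattgaACCCATACAtttcaactatt
RPS21B: atgtgtttacACCCGTACActttatacatc
RPS13: ccataaagtagACCCAAACAtttttaaaaa
RPS2: atttaagctagACCCATACAcccgctctat

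Of 15 genes for proteins that bind or build the 40S subunit, 4 had a body peak (26.7%, against 17.9% over all genes): ASC1 (the RACK1 homologue, 2.30-fold), STM1 (a factor that holds idle ribosomes together, 5.20-fold), BUD23 (an 18S rRNA methyltransferase, 6.83-fold, with 8.50-fold upstream) and EMG1 (a methyltransferase of 18S rRNA, 1.83-fold, with the summit upstream of the gene). RIO2, an assembly kinase, had an upstream peak only, at 6.16-fold, and so had UTP20, of the early precursor, at 2.22-fold. Of 6 genes for regulators of ribosomal protein genes, HMO1, which encodes a high-mobility-group protein, had a body peak, of 2.00-fold with the summit past its end, and RAP1, FHL1, IFH1, SFP1 and CRF1 had no peak.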

How the data were processed

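ChIP-seq was performed on Zuo1-Myc W303 yeast, with 2 IP and 2 input libraries. Per the labels and the study's methods, the authors aligned reads with Bowtie2 to sacCer3 and called peaks with MACS2 on pooled libraries. The handling of reads that map to several places was not given in the sources used here. The stated MACS2 command names an input file among the treatment files and an IP file among the controls. The methods give the input as the control. Peaks were not called again here, and the deposited values were read as IP over input, as the methods state. Which of the 2 settings gave the deposited list is not known here. The stated genome size setting is that of the nematode. The deposited peak list has misnamed columns and was read by position as narrowPeak: the deposited fold enrichment (a ratio), −log10 p-value and −log10 q-value, and score. The deposited peaks passed a q-value of 0.05, and 1594 were listed, 51 of them mitochondrial.

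A peak was assigned to a gene body (start to stop codon) or the 500 bp upstream at an overlap of 1 bp or more. The annotation is RefSeq R64, from strain S288C. IP and background fragments were solved from the fold enrichment, taken as (IP + 1)/(background + 1), and the Poisson −log10 p, within 0.01 of −log10 p, for all 1594 peaks. Poisson intervals were exact at 95%. The named genes are the 10 with the highest body fold, those of pairs with 1 covered copy, those with an upstream peak only, an intron summit, no peak or a G4 motif in a body peak, the single genes, and covered genes of the comparison lists, and other genes were named after their values were seen. Members and lists were chosen with earlier results of these data known. Alternatives were a fold enrichment of 3 or more, −log10 q of 10 or more, an overlap of 100 bp, upstream regions of 250 and 1000 bp, summits only, coding exons only and genes with few repeated words. Scripts were tested on simulated data. Python 3.11.15, NumPy 2.4.6, pandas 2.3.3, SciPy 1.17.1, Biopython 1.88 and matplotlib 3.10.9 were used. Some genes are counted but not reported by name or drawn singly here.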

Additional observations from a re-analysis of the deposited data

How the results depend on the processing

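Across the alternatives, 45 values stayed within 1.5 times the main count or, for the median fold, closer to the main value than the semi-interquartile range over genes, and 15 moved. The pairs with a summit in each copy were chosen after seeing the data. With peaks of 3-fold or more only, 8 RPS genes kept a body peak, 7 an upstream peak and 10 either, with 5 intron-containing and 3 intronless genes, a median of 3.31-fold, 4 genes with a summit in the body and 3 upstream, 1 pair with both copies and 6 with 1 copy. The share with a body peak was then 14.3% against 7.31% over all genes. The other counts at 3-fold have no share over all genes beside them, so they cannot be read against a background. At a −log10 q of 10 or more, both copies were covered in 11 pairs and 1 copy in 7, and 35 genes had a body peak (62.5%, against 11.9%). Counting summits only, 11 genes had an upstream peak and 6 pairs had 1 covered copy. Over coding exons only, 5 pairs had 1. With an overlap of at least 100 bp 48 genes had a body peak (85.7%, against 16.5%). No paired analysis was possible because the peak list pools the libraries and carries no replicate columns. Pooled peaks, reads shared between copies and the lack of an untagged strain here limit all values, and signal under the calling threshold is not listed.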
